A study of Mus musculus with 8 samples.

Results

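The genes studied here are 10 that hypoxia-inducible factor (HIF) switches on when oxygen is short, compared between bone metastases and primary mammary tumours of the same mice. They were Car9, P4ha1, P4ha2, Adm, Vegfa, Slc2a1, Egln3, Bnip3, Ndrg1 and Pdk1. They were chosen by name with earlier results of these data known, so shares over all genes are set beside their counts only as a description. Every probe set annotated to one of them alone was taken. That gave 23 probe sets of 10 genes, out of 34945 named probe sets of 18193 genes. The bone metastasis group was 4 arrays of cells isolated from 4T1.2 metastases in the spine of Balb/c mice. The primary group was 4 arrays of cells isolated from 4T1.2 tumours growing in the mammary gland of the same 4 mice. The labels call the cells of both groups tumour epithelial and name no sort, treatment, time or age. 4T1.2 is a bone-seeking clonal subline of the 4T1 mouse mammary carcinoma, so that both groups descend from 1 clone. The comparison asked how tumour cells growing in bone differ in gene expression from the matched primary tumour. Each probe set had a log2 signal on each array, and a fold below is the difference of 2 group means of log2 signal, metastasis minus primary, with its standard error (SE). The metastasis arrays of mice 1 and 3 had low signals of the epithelial keratin Krt8, though not of every epithelial marker. Counts are given below with and without these arrays.

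HIF is a dimer of an oxygen-sensitive alpha subunit and the stable subunit ARNT. In oxygen, prolyl hydroxylases of the EGLN family mark the alpha subunit for the VHL ubiquitin ligase, which has it degraded. When oxygen falls the alpha subunit survives, and the dimer binds short hypoxia response elements and switches on genes for glucose uptake and glycolysis, acid export, blood vessel growth, collagen modification and removal of mitochondria. Solid tumours that outgrow their blood supply are known for expressing these genes, and bone marrow is itself a tissue of low oxygen.

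The core letters of the response element are ACGTG or GCGTG, which read CACGT or CACGC on the other strand. These 4 words were searched in the 250 bases before the most upstream start of each gene in the RefSeq promoter table (GRCm38.p6), counting overlapping matches. Of the 10 genes, 9 were in the table, all but Ndrg1. At least 1 match lay in 8 of these 9, the exception being Vegfa, and in 38.6% of the 27025 genes of the table. There were 2 or more matches in 5 of the 9 genes, and in 16.8% of all genes. Bnip3 had 5 matches, a pair of which overlap as the palindrome of both strands, P4ha1 and P4ha2 had 3 each, Adm and Slc2a1 had 2 each, and Car9, Egln3 and Pdk1 had 1 each. The windows of 4 genes are printed 5′ to 3′ on the gene's strand with the matching letters in capitals: Car9 and P4ha1, which had the smallest p-values of the 10 in the comparison below, Bnip3, which had the most matches, and Slc2a1, whose probe sets disagreed. They lie at chr4:43506776-43507025 (plus strand), chr10:59323046-59323295 (plus strand), chr7:138909507-138909756 (minus strand) and chr4:119108495-119108744 (plus strand). In Car9 the match begins 18 bases before the start. A match describes letters and is not a measured binding site.
Car9: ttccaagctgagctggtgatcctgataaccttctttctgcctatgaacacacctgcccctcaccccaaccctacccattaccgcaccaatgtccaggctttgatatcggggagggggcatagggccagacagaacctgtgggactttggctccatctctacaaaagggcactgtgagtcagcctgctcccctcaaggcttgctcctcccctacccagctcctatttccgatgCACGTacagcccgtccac
P4ha1: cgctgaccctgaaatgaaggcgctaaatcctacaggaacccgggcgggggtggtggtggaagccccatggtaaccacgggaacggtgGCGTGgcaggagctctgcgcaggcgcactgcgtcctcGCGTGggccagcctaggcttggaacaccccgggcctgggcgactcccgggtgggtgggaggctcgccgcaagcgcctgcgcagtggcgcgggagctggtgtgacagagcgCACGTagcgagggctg
Bnip3: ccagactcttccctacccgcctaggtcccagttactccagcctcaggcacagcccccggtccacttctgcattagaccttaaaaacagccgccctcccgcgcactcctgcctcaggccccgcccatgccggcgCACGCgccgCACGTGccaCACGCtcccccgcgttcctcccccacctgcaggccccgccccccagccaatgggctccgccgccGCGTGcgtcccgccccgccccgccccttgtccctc
Slc2a1: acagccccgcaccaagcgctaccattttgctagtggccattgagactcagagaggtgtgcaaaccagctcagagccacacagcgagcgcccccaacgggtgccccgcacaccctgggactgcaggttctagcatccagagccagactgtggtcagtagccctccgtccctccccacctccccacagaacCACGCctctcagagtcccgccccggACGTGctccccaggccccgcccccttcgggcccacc

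Hypoxia-induced genes were lower in bone metastasis. With 1 probe set per gene, the brightest, 7 of the 10 fell (Car9, P4ha1, P4ha2, Vegfa, Egln3, Bnip3 and Pdk1), 0 rose (9.72% of all genes did), and Adm, Slc2a1 and Ndrg1 did not pass the test (limma with Benjamini-Hochberg adjustment over 18193 genes, threshold 0.05). Over all genes 12.1% were called lower by the same test and 21.8% in either direction. At an unadjusted p under 0.05 the count was 8 of 10, with Adm added and again none higher. Over all genes 6584 of 18193 passed that unadjusted threshold in either direction. All metastasis arrays lay below all primary arrays for 7 of the 10, against 14.2% of all genes, and the signal was lower within all 4 mice for 8 of the 10, against 20.4%. The called falls ran from 2.20-fold for Pdk1 to 10.4-fold for P4ha1. The median log2 fold of the 10 genes was -1.99, against 0.09 over all genes. Of the 23 probe sets 15 fell and 0 rose, against 11.9% of all probe sets called lower, 8.72% higher and 20.6% either way. All 4 metastasis arrays lay below all 4 primary arrays in 16 of the 23, against 14.0% of all probe sets, and 19 were lower within all 4 mice, against 20.1%. In bulk RNA fewer cells that express a gene and less RNA per cell cannot be told apart. Without mouse 3 the count of called genes was 3 of 10, leaving Car9, P4ha1 and Pdk1, because Vegfa, Egln3, P4ha2 and Bnip3 then had limma adjusted p-values of 0.0551, 0.0610, 0.0724 and 0.0795, with folds between -2.86 and -1.76. Calls over all genes were also fewer without that mouse, 1405 against 3975.

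**Figure D1:**
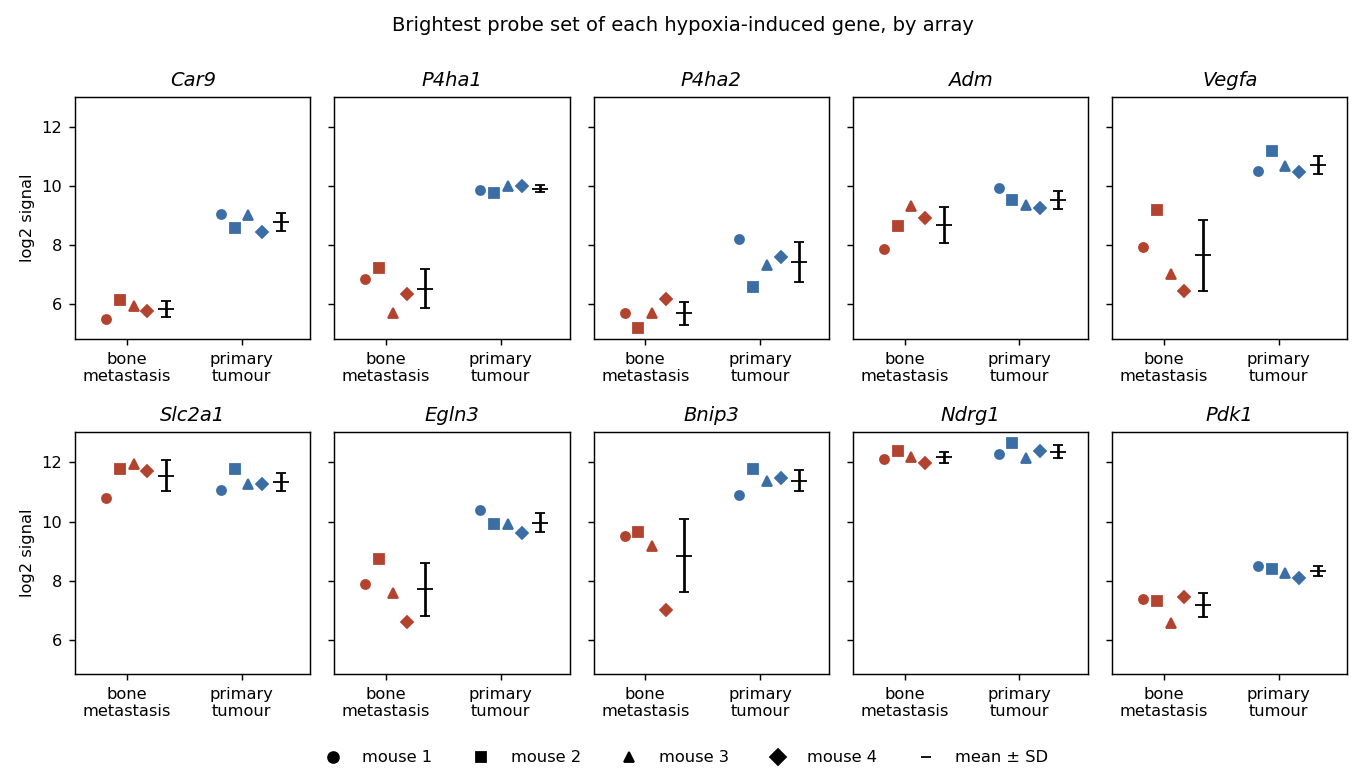
Log2 signal (vertical axis) of the brightest probe set of each of the 10 genes on the 4 bone metastasis arrays (left, red) and the 4 primary arrays (right, blue), with 1 marker shape per mouse and the mean ± SD beside each group. The groups do not overlap for Car9, P4ha1, P4ha2, Vegfa, Egln3, Bnip3 and Pdk1, and they overlap for Adm, Slc2a1 and Ndrg1.

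Car9 encodes a carbonic anhydrase of the cell surface that helps hypoxic tumour cells to export acid. Its log2 signal was 5.51, 6.16, 5.94 and 5.79 in bone metastases of mice 1 to 4, against 9.06, 8.60, 9.04 and 8.44 in their primary tumours. Every metastasis array lay more than 2 log2 units below every primary array, and the spread was small in both groups (SD 0.27 in metastases and 0.31 in primary tumours, n = 4 each). The log2 fold was -2.93 (SE 0.21), a 7.63-fold fall (limma adjusted p = 0.000211). The metastasis signals lay just above the metastasis array medians of 5.23 to 5.42, where a fold is not exact. Its probe set was the one measured for this gene.

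P4ha1 and P4ha2 encode alternative catalytic alpha subunits of collagen prolyl 4-hydroxylase, which lets collagen chains form a stable triple helix. P4ha1 had log2 signals of 6.85, 7.22, 5.72 and 6.34 in metastases, against 9.87, 9.77, 9.99 and 10.01 in primary tumours. The primary arrays were nearly equal, and the metastasis arrays of mice 3 and 4 were the lowest. The log2 fold was -3.38 (SE 0.30, limma adjusted p = 0.000497). The second probe set of P4ha1, 1426519_at, was dim, with mean log2 signals of 3.83 in metastases and 4.54 in primary tumours, and its fold of -0.71 (SE 0.23) was not called (limma adjusted p = 0.0632 over all probe sets). P4ha2 had 5.71, 5.20, 5.70 and 6.18 in metastases, against 8.20, 6.58, 7.33 and 7.60 in primary tumours. The groups did not overlap, but the highest metastasis array and the lowest primary array, of mice 4 and 2, were close. The log2 fold of P4ha2 was -1.73 (SE 0.35, limma adjusted p = 0.00974). Its metastasis signals lay near the metastasis array medians of 5.23 to 5.42, where a fold is not exact. P4ha1 fell further than P4ha2 within every mouse, by 1.65 on the log2 scale on average, but this difference did not pass an exact permutation test over the 8 arrays (two-sided p = 0.0571, adjusted over 16 pairs of genes p = 0.0703). P4hb, which encodes the beta subunit both share, also fell, with a log2 fold of -2.17 (SE 0.44, limma adjusted p = 0.0103).

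Vegfa, the main growth factor for new blood vessels, fell as well. Its brightest probe set had log2 signals of 7.95, 9.20, 7.04 and 6.45 in metastases, against 10.52, 11.17, 10.68 and 10.48 in primary tumours. Metastasis arrays were spread widely, with mouse 2 highest and mouse 4 lowest, and primary arrays were close together, without overlap. The log2 fold was -3.05 (SE 0.53, limma adjusted p = 0.00558), and the second probe set, 1451959_a_at, had a log2 fold of -2.22 (SE 0.34, limma adjusted p = 0.00372 over all probe sets). Of its relatives, Pgf, which encodes placental growth factor, fell by 0.86 on the log2 scale (SE 0.19, limma adjusted p = 0.0152), and the log2 folds of Vegfb and Vegfc were 0.15 (SE 0.21) and -1.14 (SE 0.66), neither called. Among the receptors, the co-receptor Nrp1 fell by 1.55 (SE 0.48, limma adjusted p = 0.0492), while the VEGF receptor genes Flt1 and Kdr had folds of -0.23 and 0.27 without a call. In the fit over all probe sets none of the 4 probe sets of Nrp1 was called, and the other 3 had folds from -1.38 to 1.05.

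Adm encodes adrenomedullin, a peptide that widens vessels. Its 2 probe sets differed. The brighter one, 1447839_x_at, had log2 signals of 7.86, 8.64, 9.32 and 8.91 in metastases, against 9.95, 9.53, 9.37 and 9.24 in primary tumours. The metastasis array of mouse 3 reached the primary range, so the groups overlapped, and the log2 fold of -0.84 (SE 0.31) was not called (limma adjusted p = 0.0845). Probe set 1416077_at had 4.85, 5.29, 5.40 and 5.12 in metastases, against 7.15, 7.12, 6.89 and 6.80 in primary tumours. Here the groups lay well apart, with a log2 fold of -1.83 (SE 0.16, limma adjusted p = 0.000542 over all probe sets), although the metastasis signals sit near or under the array medians of 5.23 to 5.42, where a fold is not exact. The change of the 2 probe sets was unequal by an exact permutation test over the 8 arrays (difference of log2 folds -0.98, two-sided p = 0.0286, adjusted over 13 pairs of probe sets p = 0.0413, in the same direction in 4 of 4 mice). Of the genes for its receptor, Calcrl and the partner proteins Ramp1, Ramp2 and Ramp3, the log2 folds were -0.75, -0.62, 0.46 and 0.01 without a call.

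Slc2a1 encodes GLUT1, the glucose transporter of most tumour cells, and its result rested on the probe set. The brightest probe set, 1434773_a_at, had log2 signals of 10.78, 11.78, 11.96 and 11.69 in metastases, against 11.06, 11.77, 11.27 and 11.27 in primary tumours. The groups overlapped, and the log2 fold of 0.21 was not called (SE 0.28, 95% interval -0.42 to 0.85, limma adjusted p = 0.601). Probe set 1426599_a_at also overlapped, with a log2 fold of -0.04 (SE 0.28). Probe set 1426600_at had 7.30, 8.49, 7.67 and 6.85 in metastases, against 8.99, 10.22, 10.14 and 10.09 in primary tumours. Here the groups were apart and the log2 fold was -2.28 (SE 0.40, limma adjusted p = 0.00612 over all probe sets), a call lost without mouse 3 (limma adjusted p = 0.0579). The change of 1426600_at differed from that of 1434773_a_at by -2.49 on the log2 scale in the same direction in 4 of 4 mice (exact permutation test over the 8 arrays, two-sided p = 0.0286, adjusted p = 0.0413). The direction of the gene's fold therefore turned to -2.28 with the most variable of its probe sets and to -0.70 with their mean. Its paralog Slc2a3, which encodes the transporter GLUT3, rose by 3.14 on the log2 scale (SE 0.52, limma adjusted p = 0.00455).

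Pdk1 encodes a kinase that switches off pyruvate dehydrogenase and so keeps pyruvate out of mitochondria. Its brightest probe set had log2 signals of 7.38, 7.33, 6.58 and 7.43 in metastases, against 8.50, 8.40, 8.26 and 8.10 in primary tumours. The groups did not overlap, and mouse 3 had the lowest metastasis signal. The log2 fold was -1.14 (SE 0.22, limma adjusted p = 0.00786). None of the other 3 probe sets was called, and their log2 folds were -0.66, -0.73 and 0.36, the last from a dim probe set with means of 3.61 in metastases and 3.25 in primary tumours. With the mean of the 4 probe sets the gene's fold was -0.54 and no longer called (limma adjusted p = 0.0724). Among the other kinases of this enzyme Pdk3 fell by 1.54 (SE 0.38, limma adjusted p = 0.0226), and Pdk2 and Pdk4 had log2 folds of 0.29 and 1.43 without a call. Pdk2 was dim, with means of 4.76 in metastases and 4.47 in primary tumours. Pdp1, a phosphatase that switches the enzyme back on, fell by 1.57 (SE 0.23, limma adjusted p = 0.00257), while its other probe set had a fold of 0.03. Of the 12 receptors and partners of the members that were measured, 3 were lower (Nrp1, P4hb and Pdp1) and 9 were not called, with a median of -0.63. The share called lower over all genes was 12.1%.

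Bnip3, whose product marks mitochondria for removal by autophagy, had log2 signals of 9.52, 9.65, 9.18 and 7.01 in metastases, against 10.91, 11.79, 11.36 and 11.46 in primary tumours. The groups did not overlap, and the metastasis array of mouse 4 was more than 2 log2 units below the other three. The log2 fold was -2.54 (SE 0.55, limma adjusted p = 0.0134), and it was -1.93 without the metastasis array of mouse 4.

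Egln3 encodes an oxygen-sensing prolyl hydroxylase that HIF induces as feedback on itself. Its brightest probe set had log2 signals of 7.89, 8.74, 7.59 and 6.59 in metastases, against 10.38, 9.92, 9.91 and 9.60 in primary tumours. The groups were apart and the log2 fold was -2.25 (SE 0.41, limma adjusted p = 0.00676). The dimmer probe set 1418648_at fell less, by 0.76 (SE 0.22, limma adjusted p = 0.0395 over all probe sets), and this call was lost with the mouse as a block (limma adjusted p = 0.103), with the 75th percentile scaling (0.134) and without mouse 1, 2 or 3 (0.136, 0.0816 and 0.213). Its metastasis signals of 5.15, 5.35, 5.15 and 5.72 lay near the array medians of 5.23 to 5.42, where a fold is not exact.

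Ndrg1, a gene of growth arrest and stress that hypoxia strongly induces, again depended on the probe set. The brightest, 1456174_x_at, had log2 signals of 12.12, 12.40, 12.17 and 11.97 in metastases, against 12.27, 12.65, 12.13 and 12.40 in primary tumours. These overlapped, and the log2 fold of -0.20 (SE 0.17, limma adjusted p = 0.412) became 0.01 when arrays were scaled to their 75th percentile. The suffix x, which the brighter probe set of Adm also carries, marks probes that may also bind other transcripts. The other 4 probe sets all fell, with log2 folds of -1.36, -2.22, -2.35 and -3.26. The groups overlapped for the first of these, 1423413_at. For 1450976_at the signals were 7.59, 8.58, 6.89 and 6.19 in metastases, against 10.04, 10.87, 10.66 and 10.72 in primary tumours. Here the groups did not overlap, and mice 3 and 4 were again lowest in metastases (log2 fold -3.26, SE 0.47, limma adjusted p = 0.00289 over all probe sets). Of these 4, the changes of 3 differed from that of the brightest by the exact permutation test (p = 0.0286 each, adjusted p = 0.0413), and that of 1423413_at did not pass it (p = 0.0857, adjusted p = 0.101).

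**Figure D2:**
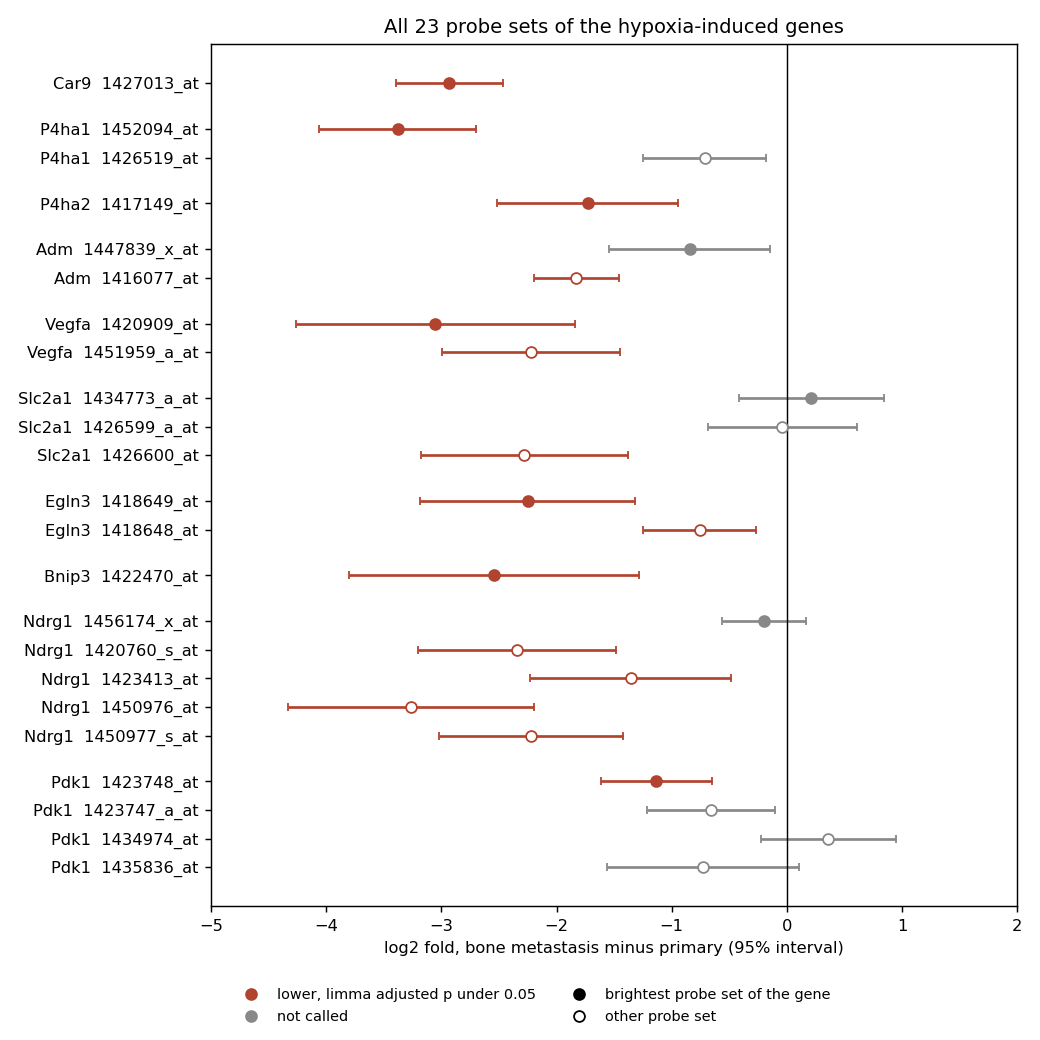
Log2 fold, bone metastasis minus primary (horizontal axis), with its 95% interval from the limma fit over all probe sets, for each of the 23 probe sets. Filled symbols mark the brightest probe set of a gene, open symbols the others, and red those called lower. The brightest probe sets of Adm, Slc2a1 and Ndrg1 were not called while another probe set of the same gene fell.

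All 10 genes thus had at least 1 probe set with a call toward lower, against 18.3% of all genes and 26.5% of the 9010 genes with several probe sets. Of 7 members with several probe sets, 5 had both called and uncalled ones (P4ha1, Adm, Slc2a1, Ndrg1 and Pdk1). Of the 13 comparisons of a probe set with the brightest of its gene, 9 passed the exact permutation test. In 6 of these the other probe set had the more negative fold, which for Slc2a1 1426599_a_at was -0.04 against 0.21, neither called. In the other three, P4ha1 1426519_at, Egln3 1418648_at and Pdk1 1434974_at, the metastasis mean of the dimmer probe set was 3.83, 5.34 and 3.61, at or under the array medians, so the size of a fall there was not measurable and unequal change is not read from them. The smallest p that this test allows is 0.0286.

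The actin and Gapdh control probe sets, whose names give their place in the transcript, differed between the groups. From the 3′ to the 5′ end of actin mRNA the log2 signal dropped by 4.85, 4.55, 5.72 and 6.18 in metastases, against 1.90, 1.85, 1.14 and 1.08 in primary tumours (exact permutation p = 0.0286, adjusted over 2 controls p = 0.0286). Gapdh dropped by 5.22 ± 0.71 in metastases and by 2.15 ± 0.48 in primary tumours (SD, n = 4 each, exact permutation p = 0.0286). Set by place, the 3′, middle and 5′ probe sets differed between metastases and primary tumours by -0.12, -1.88 and -3.95 for actin and by -0.80, -2.87 and -3.86 for Gapdh on the log2 scale. The drop was not alike in all controls, since transferrin receptor, a dim control, dropped by 1.66 ± 0.17 in metastases and by 1.61 ± 0.06 in primary tumours, and pyruvate carboxylase by 1.09 ± 0.27 in metastases and by 0.16 ± 0.15 in primary tumours (SD, n = 4 each), neither of them tested. Mice 3 and 4 had the largest drops of actin and Gapdh in metastases. Their metastasis arrays were the lowest pair for 6 of the 15 probe sets that fell, namely P4ha1 1452094_at, Vegfa 1420909_at, Egln3 1418649_at, Bnip3 1422470_at and Ndrg1 1420760_s_at and 1450976_at. The other 9 did not follow this order. Vegfa 1451959_a_at and Pdk1 1423748_at were among those with their highest metastasis signal in mouse 4, and Ndrg1 1423413_at had its highest in mouse 3. The share of all probe sets with this order was not counted, so nothing is read from the 6 of 15. The places of the members' probe sets in their transcripts were not used here, and the part of the drop in the falls was not tested beyond an alternative fit with the actin drop as a covariate. In that fit 0 of 10 members and 0 of 18193 genes were called by limma, and 3 members and 2470 genes had an unadjusted p under 0.05. The log2 folds were -2.94 for Car9 and 0.98 for Vegfa, with medians of -0.92 over the members and -0.13 over all genes. The actin drop does not overlap between the groups, and the median SE over all genes was 0.74 in this fit, against 0.23 without the covariate.

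**Figure D3:**
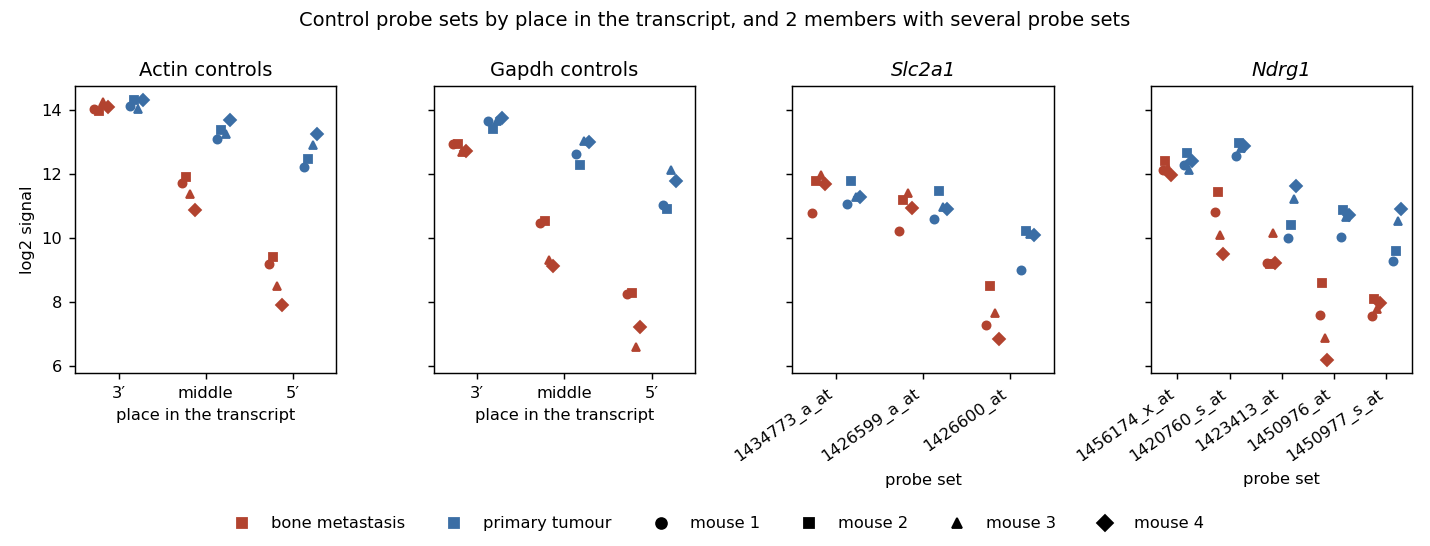
Log2 signal (vertical axis) on each metastasis array (red) and primary array (blue) of the actin and Gapdh control probe sets at the 3′ end, middle and 5′ end of the transcript, and of the probe sets of Slc2a1 and Ndrg1, with 1 marker shape per mouse. At the 3′ end of actin the groups are close, and at the 5′ end they lie 3.95 log2 units apart. The probe sets 1434773_a_at of Slc2a1 and 1456174_x_at of Ndrg1 overlap between the groups, and 1426600_at and 1450976_at do not.

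The other HIF targets fell in part. Of 28 listed, 25 were measured on a probe set of their own. Of these 11 were lower, 2 higher and 12 not called, with a median log2 fold of -0.88. Over all genes 12.1% were lower and 9.72% higher. Plod1, a lysyl hydroxylase of collagen, fell by 2.01 (SE 0.28, limma adjusted p = 0.00239), and Ankrd37 fell by 1.31 (SE 0.22, limma adjusted p = 0.00534), although its metastasis mean of 4.19 lies under the array medians. The other 9 falls ran from 0.62 to 2.73 on the log2 scale. The other probe set of Plod1 had a fold of 0.01. The genes that rose were Slc2a3 and Cxcr4. Cxcr4, the chemokine receptor that holds white cells in the marrow, rose by 1.41 (SE 0.20, limma adjusted p = 0.00259). Without mouse 3 the list had 2 lower, without mouse 4 it had 6, and with metastasis arrays 2 and 4 alone it had 4. Calls over all genes in either direction were also fewer there, 1405, 1942 and 2849 in that order, against 3975.

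Of 14 glycolytic enzyme and lactate exporter genes measured, 6 were lower and 1 higher, with a median of -0.36. The shares over all genes were 12.1% lower and 9.72% higher. Tpi1 fell by 1.92 (SE 0.14, limma adjusted p = 0.000235), Pkm, the pyruvate kinase of tumours, fell by 2.07 (SE 0.24), Ldha, which makes lactate, fell by 1.68 (SE 0.19), and Pfkl, a phosphofructokinase, fell by 1.93 (SE 0.25). The gene that rose was Aldoc, an aldolase (1.34, SE 0.23, limma adjusted p = 0.00562). Another probe set of Pfkl was called higher. Aldoa and Pgk1 were not called (-0.50 and -0.22), but 2 other probe sets of Aldoa and 1 of Pgk1 were lower, with folds down to -2.65 and -1.58. Both lists thus had lower shares of called falls than the 10 genes above, 11 of 25 and 6 of 14 against 7 of 10, a difference that was not tested.

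Of 17 measured genes that set HIF activity, 3 were lower, 2 higher and 12 not called, with a median of 0.21, shares near those over all genes (12.1% lower and 9.72% higher). Hif1a, the oxygen-sensitive subunit, had log2 signals averaging 10.36 in metastases and 11.68 in primary tumours, and fell by 1.32 (SE 0.40, limma adjusted p = 0.0446). It was lower in 4 of 4 mice, with overlap between the groups, and its other probe sets had folds from -2.25 to 0.17. Epas1, the second alpha subunit, and Arnt, their partner, had folds of 0.36 (SE 0.72) and 0.47 (SE 0.19), and Vhl, the ubiquitin ligase subunit that recognises the alpha subunit, had 0.17 (SE 0.24), none of them called. The other 4 probe sets of Arnt had folds from -0.72 to 0.19, and 1 was called lower. Elob and Eloc, partners of Vhl in the ligase, moved in opposite directions, Elob by 2.06 (SE 0.24, limma adjusted p = 0.00123) and Eloc by -0.66 (SE 0.19, limma adjusted p = 0.0361). Their other probe sets had folds of 0.77 for Elob and from -0.44 to 0.36 for Eloc. Cited2, which competes with HIF for its coactivator, fell by 2.66 (SE 0.69, limma adjusted p = 0.0271), while its other probe set had a fold of 1.03. Arnt2, a relative of Arnt, rose by 0.97 (SE 0.17, limma adjusted p = 0.00617), and its other probe sets had folds of 0.07 and 0.30. The count of 3 lower went to 0 without metastasis replicate 3 or 4, without any one of the primary replicates 1 to 4, and without mouse 3 or 4, and to 1 without mouse 1.

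Among 18 paralogs of the members measured, 3 were lower and 2 higher, with a median of 0.23, again near the shares over all genes (12.1% lower and 9.72% higher). Ndrg4, a neural relative of Ndrg1, rose by 4.61 (SE 0.43, limma adjusted p = 0.000542), and its second probe set by 4.42. Nerve genes were higher in the same arrays. The other call toward higher was Slc2a3, and the calls toward lower were Car12, another cell surface carbonic anhydrase (-1.70, SE 0.39, limma adjusted p = 0.0168), with Pgf and Pdk3. The other probe sets of Car12 had folds of -0.51 and 0.44, and those of Slc2a3 had folds from 0.08 to 2.95. The remaining relatives in the pairs had folds of 0.15 for P4ha3, 0.71 for Adm2, 0.03 for Slc2a4, -0.93 for Egln1, 0.48 for Egln2, 0.35 for Ndrg2 and 0.42 for Ndrg3, none of them called. The other probe set of Egln1 was called lower, with a fold of -1.76. In the 16 member and paralog pairs, 9 differences of log2 fold had the smallest p the exact permutation test allows (0.0286). They were P4ha1 against P4ha3 (-3.53), Vegfa against Vegfb, Vegfc and Pgf (-3.20, -1.91 and -2.20), Adm against Adm2 (-1.55), Slc2a1 against Slc2a3 (-2.93), Egln3 against Egln1 and Egln2 (-1.32 and -2.73) and Pdk1 against Pdk2 (-1.42). Adjusted over the 16 pairs each had an exact p of 0.0508, so that no pair passed the threshold. P4ha3 and Pdk2 had means of 3.61 and 4.76 in metastases and 3.45 and 4.47 in primary tumours. These lie under the array medians, so a fall of P4ha3 or Pdk2 was not measurable. Egln1, Egln2, Car12 and Slc2a3 each stand in more than 1 of the lists above.

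**Figure D4:**
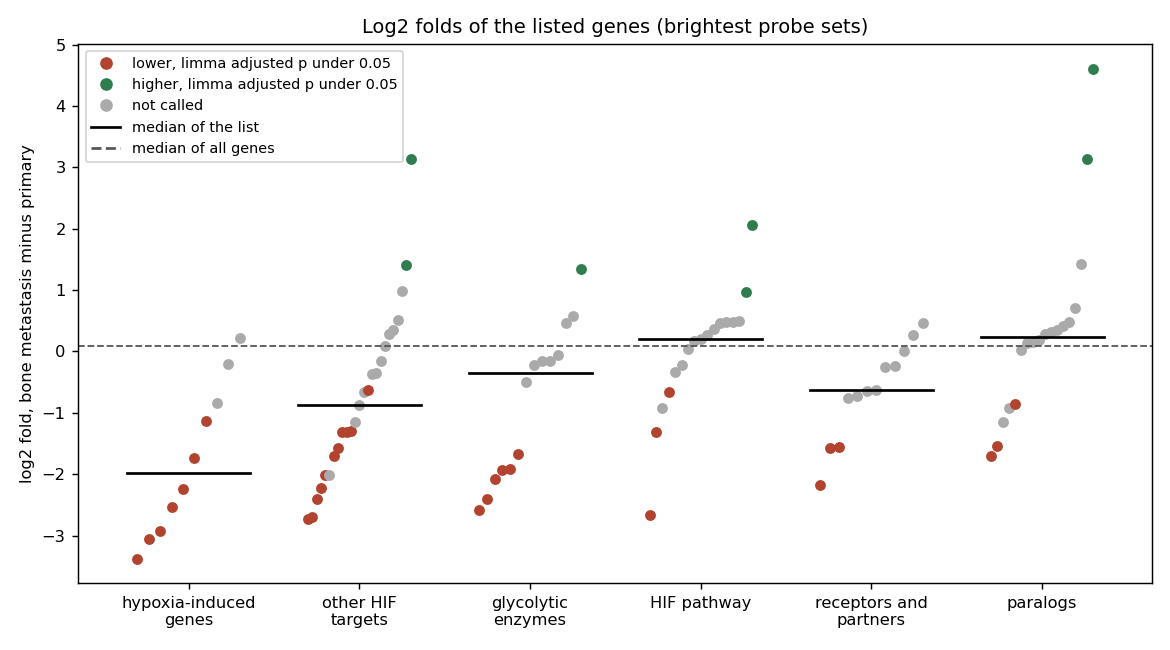
Log2 fold, bone metastasis minus primary (vertical axis), of each measured gene of 6 lists, by its brightest probe set, with calls toward lower in red and toward higher in green, list medians as black bars and the median of all genes as a dashed line. The 10 hypoxia-induced genes have a median of -1.99, the other HIF targets -0.88, the glycolytic enzymes -0.36 and the HIF pathway genes 0.21.

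Cell type markers were counted beside shares over all genes of 12.1% lower and 9.72% higher. Epithelial markers were lower in 2 of 10 cases, and their summed signal lay at 10.15 to 13.72 on the log2 scale in metastases, against 13.78 to 13.88 in primary tumours. Krt8 had log2 signals of 7.34, 12.39, 9.80 and 12.97 in metastases, against 13.32, 13.07, 13.19 and 13.22 in primary tumours, lowest on the metastasis arrays of mice 1 and 3. These arrays were also the lowest pair of the metastases for Krt18, Krt19, Krt7, Krt5 and Cldn3. They were not for Epcam, Cdh1, Krt14 and Cldn4. Cdh1 was lowest in mouse 4 (5.74), and Cldn4 was highest in mouse 1 (7.46). The metastasis array of mouse 4 had the highest Krt8 signal of the metastases and the largest actin drop. By brightest probe sets it was the lowest metastasis array for Vegfa, Egln3, Bnip3 and Ndrg1 (6.45, 6.59, 7.01 and 11.97). It was the highest for P4ha2 and Pdk1 (6.18 and 7.43), and neither for Car9, P4ha1, Adm and Slc2a1. With metastasis arrays 2 and 4 alone, 6 of 10 members were called lower, P4ha2 being lost (limma adjusted p = 0.0578), and 12 of 23 probe sets. In that setting 2849 of 18193 genes were called in either direction, against 3975 with all arrays. Macrophage markers were lower in 8 of 10 cases, with summed signals of 12.76 to 14.38 in metastases, against 14.93 to 15.69 in primary tumours. Neutrophil markers were higher in 6 of 9 cases, with 14.33 to 15.34 in metastases, against 11.55 to 12.07 in primary tumours. B lineage markers were higher in 6 of 8, with 11.34 to 15.18 in metastases, against 8.24 to 8.60 in primary tumours. Nerve and Schwann cell markers were higher in 5 of 7, with 12.45 to 13.70 in metastases, against 10.57 to 12.15 in primary tumours. Cartilage markers were higher in 4 of 8, muscle in 2 of 7, osteoblast in 1 of 5, T and NK cell in 1 of 7 and endothelial in 1 of 8 with none lower, fibroblast in 2 of 8 with 1 lower, and osteoclast markers were lower in 2 of 6 with none higher. The counts of 1 of 8 and 1 of 7 lie near the share over all genes. The summed signal of 7 erythroid markers was 7.37 to 8.10 in metastases, against 7.40 to 7.53 in primary tumours. The part of these cells in the falls of the hypoxia-induced genes was not tested.

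The 5 genes whose profile over the 8 arrays lay nearest to the mean profile of the 10 members were Tspan3, Ldha, Parp9, Yrdc and Smurf1. Each gene was taken minus its own mean, and the root mean square difference was 0.09, 0.12, 0.15, 0.16 and 0.18 on the log2 scale. The members themselves lay 0.44 (Egln3) to 1.08 (Slc2a1) from their mean. Ldha was the only one of the 5 in any list used here, and it had log2 signals of 10.65, 11.07, 10.51 and 10.26 in metastases, against 12.29, 12.26, 12.20 and 12.45 in primary tumours.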

How the data were processed

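The 8 arrays, 4 for each tumour site, carried RNA amplified in 2 cycles, per the labels' protocols, and the design text says that a mouse gave both of its tumours. The deposited values were RMA signals on a log2 scale, per the submitters' processing notes. The RMA version is not given in the sources used here, nor whether all arrays were normalized together. No depth applies to arrays, whose number limits the precision.

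Of 45101 probe sets, 64 were controls, 932 had several symbols and 9160 had none listed; these were left out of the fits. The deposited log2 values were compared by limma (version 3.58.1, R 4.3.3; lmFit and eBayes, two-sided), once with the brightest probe set of each of 18193 genes and once with all 34945 named probe sets, with Benjamini-Hochberg adjustment over each and no filter or block. Values of brightest probe sets come from the first fit, those of other probe sets from the second. Within-array differences of probe sets or genes, and control drops, were compared by exact permutation of the 8 arrays, taken as unpaired. Summed marker signals are log2 of summed linear signals. The same mouse pairs arrays by design; same-numbered arrays' deviations from their group means correlated at -0.11 to 0.17 over genes. The fits were tested on simulated data. Python 3.11.15, pandas 2.3.3 and numpy 2.4.6 were used.

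All 10 members were named with every probe set, with up to 4 called genes of each other list by adjusted p and the same direction in 4 of 4 mice, the paralogs of the pairs, and Hif1a, Epas1, Arnt and Vhl; the 5 nearest profiles were named too; other genes were named after their values were seen. In all 17 listed entries had no probe set of their own. The members and lists were chosen with earlier results of these data known. Alternatives covered scaling, a filter on dim probe sets, the probe set per gene, the mouse as a block, a variance trend, the actin drop as a covariate and leaving out arrays or mice.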

Additional observations from a re-analysis of the deposited data

Results flagged for a closer look

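Among the 23 probe sets, 46 groups of 4 arrays were examined for an array far from the other three, and 4 had one, where chance alone flags about 1 in 20 groups. In metastases these were the array of mouse 3 for Ndrg1 1423413_at, the highest at a log2 signal of 10.17, that of mouse 3 for Pdk1 1423748_at, the lowest at 6.58, and that of mouse 4 for Pdk1 1434974_at, the highest at 4.43. In primary tumours it was the array of mouse 1 for Slc2a1 1426600_at, the lowest at 8.99. Without primary replicate 1 the fall of Slc2a1 1426600_at had a limma adjusted p of 0.00540, and without metastasis replicate 3 the fall of Pdk1 1423748_at had one of 0.00723, so that both calls held.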

How the results depend on the processing

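With arrays scaled to their 75th percentile the median log2 fold over all genes was 0.30, against 0.09 as deposited, and 7 members were called lower there, with quantile normalization, the filter on dim probe sets, the variance trend and the mouse as a replicate block. With the block 14 of 23 probe sets were lower, against 15; it changed no call of a member gene. The most variable probe set gave 10 members lower and the mean of the probe sets 8. The variance was taken over all 8 arrays, so that choice itself favours probe sets that differ between the groups. Calls over all genes in either direction were 5069 with the most variable probe set and 3912 with the mean, against 3975. Leaving out arrays or mice gave 3 to 8 members and 8 to 15 probe sets lower, and 0 higher in each case. With the actin drop as a covariate 0 members, 0 probe sets and 0 genes of each list were called in either direction, the folds of Bnip3, Egln3, Vegfa, Ndrg1 and Slc2a1 turned to 1.58, 0.36, 0.98, 0.12 and -0.73, and the cause was not tested. The fold of Ndrg1 turned to 0.0050 with the 75th percentile scaling, that of Slc2a1 to -0.70 with the mean and -2.28 with the most variable probe set, and the unequal change of Pdk1 1435836_at to -0.014 without mouse 3, within a leave-one-out range of -0.014 to 0.66.

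Of the HIF pathway genes 4 were higher with the 75th percentile scaling and 1 with the filter, and 1 was lower with metastasis arrays 2 and 4 alone, a setting chosen after seeing the data. Quantile normalization gave 3 higher and 2 lower of these genes. Of the glycolytic genes 2 were higher with the 75th percentile scaling and with quantile normalization and 0 with the mean of the probe sets. Of receptors and partners 1 was higher with the most variable probe set, and of other HIF targets 4 were lower with metastasis arrays 2 and 4 alone. Leaving out arrays or mice gave 0 to 3 lower and 1 to 4 higher HIF pathway genes, 2 to 12 lower other HIF targets, 5 to 7 lower and 1 to 2 higher glycolytic genes, 1 to 3 lower and 0 to 1 higher receptors and partners, and 0 to 4 lower and 2 to 3 higher paralogs. Scanner-level background was not recomputed, so signals near the array medians have inexact folds.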
